A study of Mus musculus with 9 samples.

Results

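The 8 genes described here encode the cytosolic machinery that turns citrate and acetate into palmitate in mouse liver, with the proteins that serve it: Acly, Acss2, Acaca, Acacb, Fasn, Me1, Thrsp and Mid1ip1. They were taken by name, as every probe set (a group of short probes for a transcript) that the array's annotation paired with exactly 1 of these symbols, which gave 19 of 41782 probe sets and 8 of 17514 genes. One further probe set was paired with both Acss2 and Gssos2 and was left out by that rule. RNA came from liver of c57Bl/6 mice that had received chow before the study and then either the control diet (4 arrays) or a high-fat diet (HFD, 5 arrays) with 21% fat and 42% of calories from fat. All samples share strain and tissue, no transgene or drug is named, and the labels give neither the control diet's make-up nor sex, age or time on the diet. Whether the arrays of a diet come from different animals is not given in the labels. P-values therefore describe array-to-array spread, part or all of which may be technical, and the small number of arrays limits the precision.

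Lipogenesis starts when citrate leaves the mitochondrion. In the cytosol ATP citrate lyase (Acly) splits it to acetyl-CoA, and the synthetase Acss2 makes the same product from acetate. The acetyl-CoA carboxylases, of which Acaca is the cytosolic and Acacb the mitochondrial-membrane form, convert it to malonyl-CoA, and fatty acid synthase (Fasn) joins these units to palmitate with NADPH, part of which comes from malic enzyme (Me1). Thrsp, also called Spot 14, and its relative Mid1ip1 are small proteins without known catalytic activity that promote this pathway, Mid1ip1 by helping acetyl-CoA carboxylase to polymerise. In liver many of these genes are known targets of SREBP-1c, LXR or ChREBP, and many are induced by insulin and carbohydrate.

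Sequences 5′ of 3 members, chosen by outcome or role, are shown: Thrsp, the gene that passed the test, Acss2, of which 1 probe set passed in the opposite direction, and Fasn, the enzyme that makes the fatty acid. Each is the run of 250 bases before the start RefSeq gives on GRCm38.p6 (for Fasn a start inside the gene's outer bounds), in the direction of transcription, with the CCAAT box (CCAAT on either strand) in capitals. The windows are chr7:97417551-97417800 on the minus strand for Thrsp, chr11:120824548-120824797 on the minus strand for Fasn and chr2:155517793-155518042 on the plus strand for Acss2.
Thrsp: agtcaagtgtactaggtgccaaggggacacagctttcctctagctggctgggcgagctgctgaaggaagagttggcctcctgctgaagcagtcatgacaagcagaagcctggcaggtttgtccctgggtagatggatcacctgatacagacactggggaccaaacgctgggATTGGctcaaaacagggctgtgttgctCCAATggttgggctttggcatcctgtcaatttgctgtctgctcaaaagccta
Fasn: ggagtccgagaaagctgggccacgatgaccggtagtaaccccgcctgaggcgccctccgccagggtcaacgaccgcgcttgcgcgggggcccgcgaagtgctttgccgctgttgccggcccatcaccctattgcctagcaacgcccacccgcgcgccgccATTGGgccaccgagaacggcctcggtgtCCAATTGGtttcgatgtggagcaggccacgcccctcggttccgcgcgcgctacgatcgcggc
Acss2: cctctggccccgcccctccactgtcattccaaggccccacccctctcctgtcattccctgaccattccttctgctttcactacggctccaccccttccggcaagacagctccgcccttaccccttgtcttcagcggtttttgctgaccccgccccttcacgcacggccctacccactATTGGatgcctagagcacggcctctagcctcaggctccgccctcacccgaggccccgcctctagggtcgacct

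All 8 members matched the RefSeq promoter table, with 9 start sites in all since Me1 has 2. The windows of Acaca, Acacb and Fasn and 1 window of Me1 lie inside the gene's outer bounds. For Acaca, Acacb and Fasn the bases before the outer 5′ end were therefore not searched. CCAAT was found before 5 of the 9 starts (Acss2, Acacb, Fasn, 1 start of Me1, and Thrsp) and in 33.8% of all 32851 windows of this length. Fasn holds 3 matches, of which the nearest 2 to the start overlap, and Thrsp holds 2. TATAAA was found before Acacb, against 12.4% of all windows. The E-box CACGTG (6.02% of all windows) and the sterol regulatory element TCACNCCAC (1.05%) were found on neither strand of any of the 9 windows. A missing match says only that these letters are not in the window. Any bearing of the matches on the differences between the diets was not tested.

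Values are deposited log2 differences of a probe set from its own baseline, the median over all samples, which shows how groups differ but not how abundant a transcript is. A gene's value is the mean of its probe sets unless a probe set is named, and a difference is HFD minus control with its standard error from limma, for 4 control and 5 HFD arrays. A gene was called when its Benjamini-Hochberg adjusted p over all 17514 genes was under 0.05, and a probe set likewise over all 41782. Of the 8 members, 1 gene was called higher in HFD (Thrsp) and none lower, where 3.15% of all genes were called higher and 2.02% lower. At an unadjusted p under 0.05 the count was 3 higher (Thrsp, Acaca and Fasn) and 0 lower, where 10% of all genes were higher and 9.09% lower at that threshold. Of the 19 probe sets 1 was called higher (Thrsp) and 1 lower (Acss2), against 2.04% and 1.23% of all probe sets. The differences of the 8 genes ran from -0.57 to 1.02 with a median of 0.44, where the median of all genes was -0.01. No gene mean was separated between the diets on every array, against 5.32% of all genes separated with HFD higher and 4.27% with HFD lower. With the most variable probe set standing for each gene, limma called 0 of the 8 in either direction, against 3.37% of all genes higher and 1.87% lower. At an unadjusted p under 0.05 it gave 3 higher and 0 lower, against 10.3% and 8.78% of all genes.

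**Figure D1:**
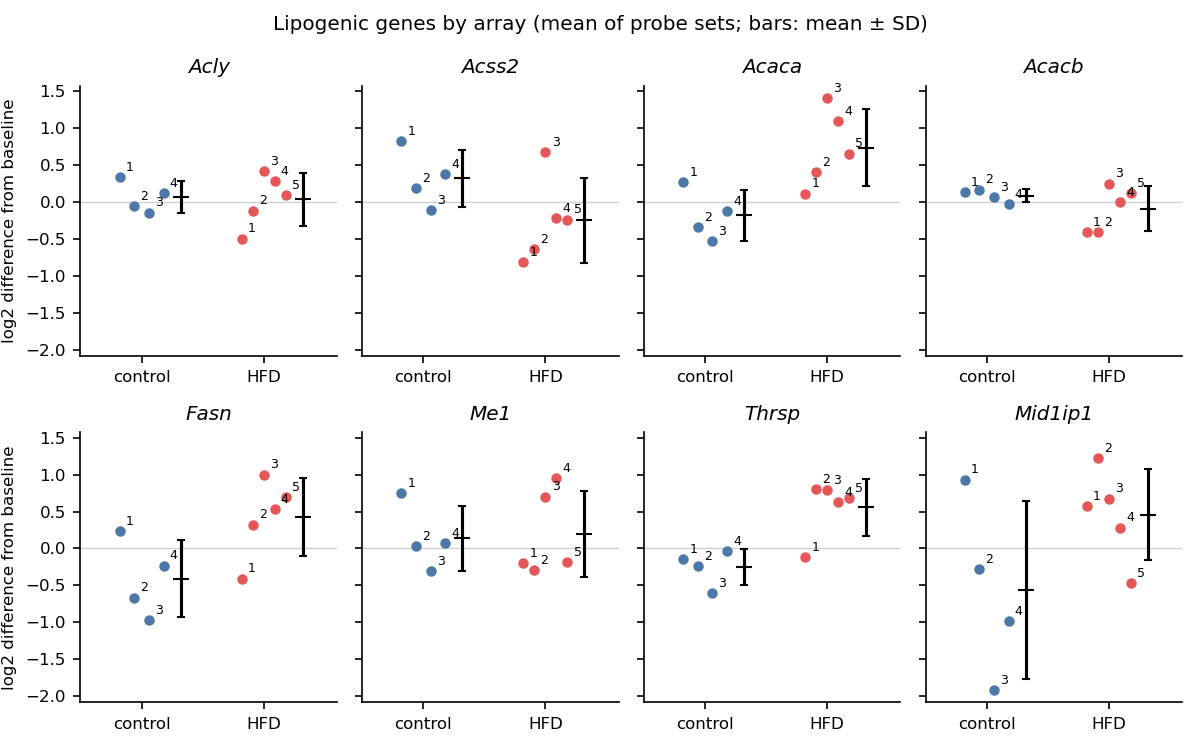
Value of each lipogenic gene on each array (vertical axis, log2 difference from the gene's baseline, mean of its probe sets) in control and HFD; numbers beside the points are replicates, and bars give the group's mean ± SD. Values of the groups overlap in each of the 8 genes, and HFD replicate 1 lies below the other HFD arrays in Acaca, Fasn, Thrsp, Acly and Acss2.

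Whole arrays differed in spread more than in centre. The standard deviation over all probe sets was 0.335 on HFD replicate 5 and 0.221 to 0.267 on the other arrays, and in limma's array weights HFD replicate 5 had the lowest weight (0.461, against 0.745 to 1.35). Markers of other cell types moved with the diet: 7 of 10 Kupffer cell and macrophage markers were called lower (array means 0.14 to 1.26 in control, -1.15 to 0.05 in HFD), as were 2 of 10 sinusoidal endothelial markers (0.12 to 0.56 against -1.07 to 0.21), although the first count was 4 without control replicate 2 or control replicate 3, and the second ran from 0 to 8 with 1 array left out. At an unadjusted p under 0.05 the lower counts were 10 of 10 and 8 of 10, and every difference in both lists was negative. Of 7 measured adipocyte markers 1 was called higher, Cidec, which fatty liver also expresses, and the array means were -0.35 to 0.03 in control and 0.27 to 0.45 in HFD, while the defining markers Adipoq (0.03 ± 0.13) and Lep (0.08 ± 0.09) did not pass. At an unadjusted p under 0.05, 2 adipocyte markers were higher, Cidec and Car3 (1.54 ± 0.60), and 0 lower. Of 8 hepatocyte markers 1 was called lower, Hnf4a (-0.52 ± 0.08), 4 were lower at an unadjusted p under 0.05, and the array means were 0.06 to 0.24 in control and -0.26 to -0.01 in HFD, without overlap. Of 10 stellate cell markers 1 was called higher and 0 lower in limma, with 2 higher and 4 lower at an unadjusted p under 0.05, and 3 were called lower without HFD replicate 4. Of 5 cholangiocyte markers 0 were called, with 0 at an unadjusted p under 0.05. Of all genes 3.15% were called higher and 2.02% lower, and at an unadjusted p under 0.05 the shares were 10% and 9.09%. Presence of a marker could not be checked, because the values hold no levels, and the part of these shifts in the results below was not tested. In RNA from whole tissue, fewer cells of a type and less RNA per cell cannot be told apart.

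Acly, the lyase that supplies most cytosolic acetyl-CoA, lies at chr11:100476352-100528000 on GRCm38.p6 and has 5 probe sets. Its gene value was 0.34, -0.06, -0.14 and 0.12 on control replicates 1 to 4 and -0.49, -0.12, 0.41, 0.28 and 0.09 on HFD replicates 1 to 5. The HFD arrays reached both below and above all controls. The difference was -0.03 ± 0.17 (limma adjusted p = 0.951), with a 95% confidence interval from -0.41 to 0.35. None of the 5 probe sets passed, 3 differences were negative and 2 positive, and they ranged from -0.46 (1425326_at) to 0.29 (1439459_x_at). These disagreed most on HFD replicate 5, where 1425326_at stood at -1.07 and 1439459_x_at at 1.00. The latter's name marks it as one whose probes can bind related transcripts.

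Acss2, the acetyl-CoA synthetase at chr2:155518043-155562743, had the most negative difference of the 8 genes. Its probe set 1422479_at stood at 0.81, 0.41, 0.35 and 0.53 on the control arrays and at -0.75, -0.77, 0.04, -0.04 and -0.26 on the HFD arrays. Every HFD array lay below every control, as in 3.5% of all probe sets. The probe set fell by 0.88 ± 0.18 (1.84-fold, limma adjusted p = 0.0273). The call ended when any 1 control array was left out (adjusted p = 0.0592 to 0.0772) and when HFD replicate 5 was dropped jointly with control replicate 1 (0.0851), the difference staying between -0.98 and -0.78 over all arrays left out singly.

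The other probe sets of Acss2 did not pass. 1422478_a_at differed by -0.68 ± 0.27 (adjusted p = 0.222), with -1.22 and -1.23 on HFD replicates 1 and 2 and 0.08 on HFD replicate 5, inside the control range. 1446542_at differed by -0.14 ± 0.53 and stood at 2.04 on HFD replicate 3, where 1422479_at read 0.04. Over the 3 probe sets the gene differed by -0.57 ± 0.28 (adjusted p = 0.307), with a 95% confidence interval from -1.19 to 0.05. The probe set shared with Gssos2 differed by 0.05 ± 0.12.

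**Figure D2:**
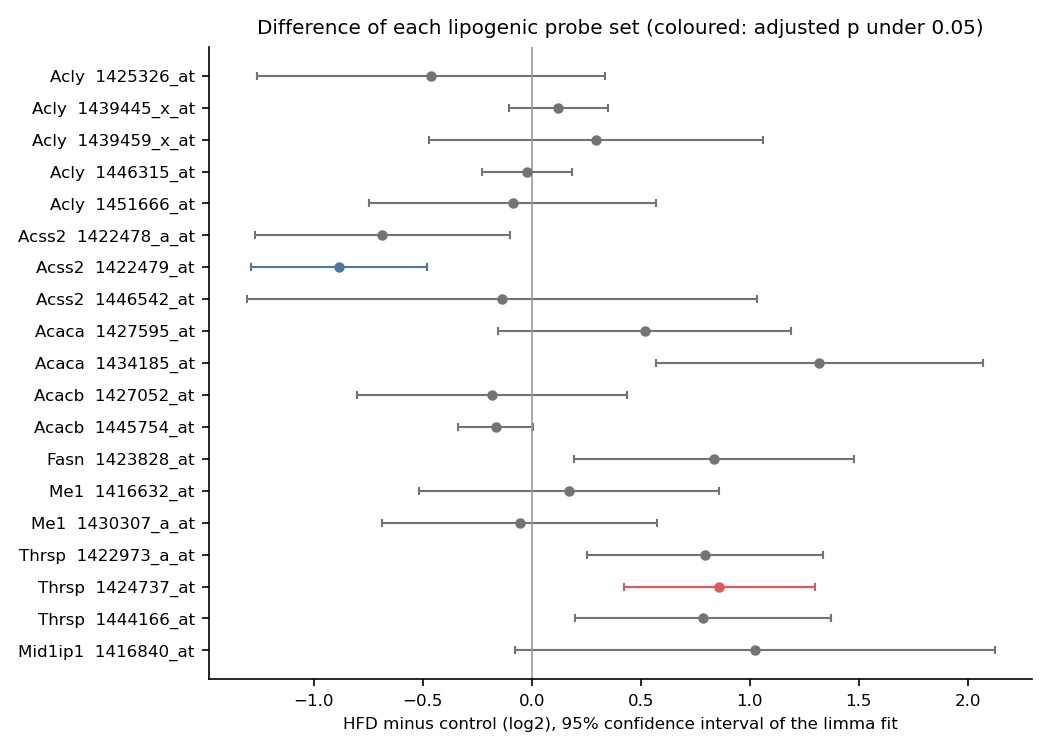
Difference of each of the 19 probe sets (horizontal axis, HFD minus control on the log2 scale; bars are 95% confidence intervals of the limma fit, not adjusted for the number of probe sets). The coloured points, 1424737_at of Thrsp at 0.86 and 1422479_at of Acss2 at -0.88, are those called over all probe sets.

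Acaca, which makes the malonyl-CoA used for synthesis (chr11:84129635-84401651), stood at 0.27, -0.34, -0.53 and -0.12 on the control arrays and at 0.11, 0.41, 1.41, 1.10 and 0.66 on the HFD arrays. Control replicate 1 lay above HFD replicate 1, and the remaining arrays were separated. The difference was 0.92 ± 0.25 (1.89-fold, 95% confidence interval 0.36 to 1.48) and missed the threshold over all genes (limma adjusted p = 0.0649). Its call depended on the setting: it passed without HFD replicate 1 (1.07, adjusted p = 0.0305) and when the genes with the smallest spread were left out (adjusted p = 0.0356).

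The probe sets of Acaca gave unequal sizes. 1434185_at stood at -0.13, -0.47, -0.47 and -0.23 on the control arrays and at 0.20, 0.13, 1.93, 1.14 and 1.57 on the HFD arrays, without overlap (4.5% of probe sets were higher without overlap). HFD replicates 1 and 2 lay nearest the controls. The difference was 1.32 ± 0.34, with a limma adjusted p = 0.0659. Over 17 alternatives the adjusted p ran from 0.0330 to 0.174, and 4 of them passed, among them those without HFD replicate 1 (0.0371) or HFD replicate 2 (0.0330). 1427595_at differed by 0.52 ± 0.30 (adjusted p = 0.447), and on HFD replicate 5 it read -0.25 where 1434185_at read 1.57.

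Acacb, the form whose malonyl-CoA restrains fatty acid entry into mitochondria (chr5:114146321-114250761), stood at 0.13, 0.17, 0.07 and -0.03 on the control arrays and at -0.40, -0.41, 0.25, 0.00 and 0.12 on the HFD arrays. HFD replicates 1 and 2 were below all controls and the others among or above them. The difference was -0.17 ± 0.14 (adjusted p = 0.560, 95% confidence interval -0.48 to 0.13), and its 2 probe sets differed by -0.18 and -0.17. Without HFD replicate 1 the gene's difference was -0.10, and without HFD replicate 2 it was -0.09.

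The carboxylases were also set against each other within each array. This gap and those of 2 other pairs below were chosen with the values known, so they are given as descriptions with no test. Acaca minus Acacb was 0.14, -0.51, -0.60 and -0.09 on the control arrays (-0.27 ± 0.35, SD, n = 4) and 0.52, 0.82, 1.16, 1.10 and 0.54 on the HFD arrays (0.83 ± 0.30, SD, n = 5). The groups did not overlap, and the mean gap was 1.09 larger on the HFD arrays. The share of all gene pairs whose gap separates the diets was not counted. Leaving out any 1 array gave 0.98 to 1.23, and the probe sets with the largest spread gave 1.5. Between single probe sets the gap ran from 0.68 to 1.5, and the groups were separated for 1434185_at against either probe set of Acacb but overlapped for 1427595_at.

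**Figure D3:**
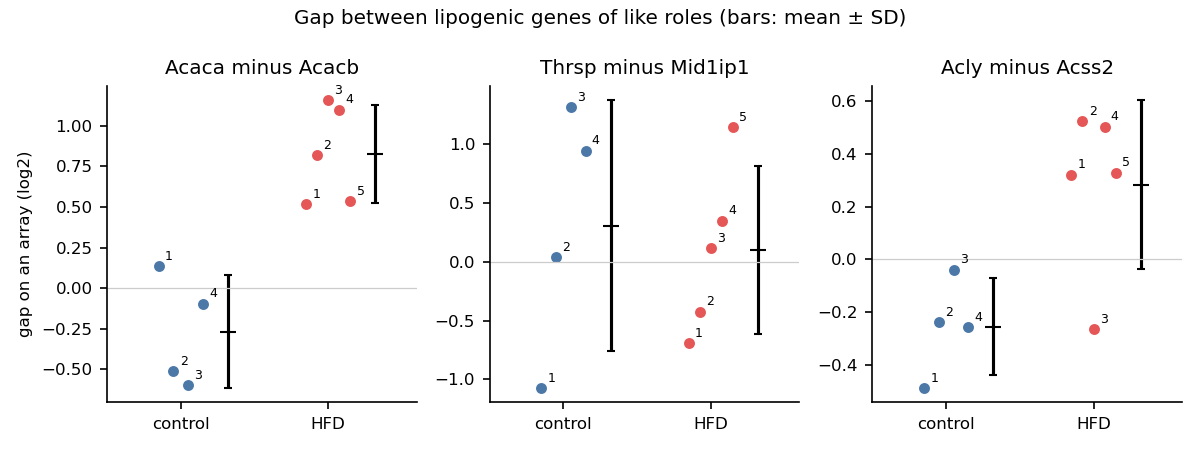
Gap between genes of like roles on each array (vertical axis, log2; numbers are replicates, bars the mean ± SD of each group). Acaca minus Acacb is 0.52 or more on all 5 HFD arrays and at most 0.14 in control, Thrsp minus Mid1ip1 overlaps throughout, and HFD replicate 3 lies among the controls for Acly minus Acss2.

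For the sources of acetyl-CoA, Acly minus Acss2 averaged -0.26 ± 0.18 (SD, n = 4) on the control arrays and 0.28 ± 0.32 (SD, n = 5) on the HFD arrays. The means differed by 0.54, with HFD replicate 3 at -0.26 among the controls. With the most variable probe set of each gene the difference turned to -0.33.

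Fasn, the synthase itself (chr11:120805958-120825166), has 1 probe set, 1423828_at. It stood at 0.23, -0.67, -0.97 and -0.23 on the control arrays and at -0.41, 0.32, 1.00, 0.53 and 0.69 on the HFD arrays. HFD replicates 2 to 5 were above all controls, and HFD replicate 1 lay between control replicates 4 and 2. The difference was 0.84 ± 0.29 (1.79-fold, 95% confidence interval 0.19 to 1.48) and did not pass (limma adjusted p = 0.140). Without HFD replicate 1 it was 1.05 with an adjusted p = 0.0423, and without any other single array it was 0.65 to 1.05 and did not pass.

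Me1, the cytosolic malic enzyme (chr9:86581363-86695914), stood at 0.75, 0.04, -0.30 and 0.07 on the control arrays and at -0.20, -0.29, 0.70, 0.95 and -0.18 on the HFD arrays. HFD replicates 3 and 4 were high and the other HFD arrays were near control replicate 3. The difference was 0.06 ± 0.29 (adjusted p = 0.945), with a 95% confidence interval from -0.59 to 0.70. Its 2 probe sets differed by 0.17 and -0.06.

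Thrsp, a small nuclear and cytosolic protein that follows the lipogenic state (chr7:97412933-97417550), rose in HFD. Its gene value was -0.14, -0.24, -0.60 and -0.04 on the control arrays and -0.12, 0.80, 0.79, 0.63 and 0.68 on the HFD arrays. In this mean of 3 probe sets, HFD replicates 2 to 5 lay within a narrow range above all controls, and HFD replicate 1 lay among the controls. The difference was 0.81 ± 0.19 (1.76-fold, 95% confidence interval 0.40 to 1.23, limma adjusted p = 0.0328). The call ended when any 1 array other than HFD replicate 1 was left out (adjusted p = 0.0501 to 0.0984), and without HFD replicate 1 the difference was 0.98 (adjusted p = 0.00263). It also ended when HFD replicate 5 was dropped jointly with control replicate 1 (0.0876) and with the most variable probe set, 1444166_at (0.134).

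The 3 probe sets of Thrsp gave like sizes, 0.80 ± 0.25 for 1422973_a_at, 0.86 ± 0.20 for 1424737_at and 0.79 ± 0.27 for 1444166_at. Of these 1424737_at was called over all probe sets (limma adjusted p = 0.0433), at 0.03, -0.22, -0.76 and -0.10 on the control arrays and -0.03, 0.67, 0.78, 0.78 and 0.79 on the HFD arrays. Its call ended without any 1 array other than HFD replicate 1 and under array weights (adjusted p = 0.0530). The probe sets disagreed most on HFD replicate 4. There 1422973_a_at read 1.20, 1424737_at 0.78 and 1444166_at -0.08, the last below its value on control replicate 4 (0.08).

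Mid1ip1, the relative of Thrsp on the X chromosome (chrX:10717365-10719702), had the widest control spread of the members. It stood at 0.93, -0.28, -1.92 and -0.99 on the control arrays and at 0.57, 1.23, 0.67, 0.28 and -0.47 on the HFD arrays. Control replicate 1 was above 4 of the 5 HFD arrays, and HFD replicate 5 was below control replicate 2. The difference of 1.02 ± 0.50 was the largest of the 8 genes and did not pass (adjusted p = 0.305, 95% confidence interval -0.09 to 2.13). When HFD replicate 5 was dropped jointly with control replicate 1 it was 1.75 (adjusted p = 0.0289), and without control replicate 3 it was 0.57 (adjusted p = 0.592). Thrsp minus Mid1ip1 differed by -0.21, less than its spread between arrays, with a control mean of 0.31 ± 1.07 (SD, n = 4) and an HFD mean of 0.10 ± 0.72 (SD, n = 5).

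Within each diet the same arrays were often the highest or lowest. Among controls, replicate 1 was the highest in 6 of the 8 genes and replicate 3 the lowest in 7. Among HFD arrays, replicate 3 was the highest in 5 genes and replicate 1 the lowest in 5. HFD replicate 3 was above all controls in 5 genes, replicates 2 and 4 in 4, replicate 5 in 3 and replicate 1 in 0. The share of all genes with such ranks on each array was not counted, so these counts are not shown to be particular to the members. The mean of the 8 genes was 0.42 on control replicate 1 and -0.56 on control replicate 3, and -0.22 on HFD replicate 1 and 0.74 on HFD replicate 3. The medians of these arrays over all probe sets lay between -0.01 and 0.00.

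**Figure D4:**
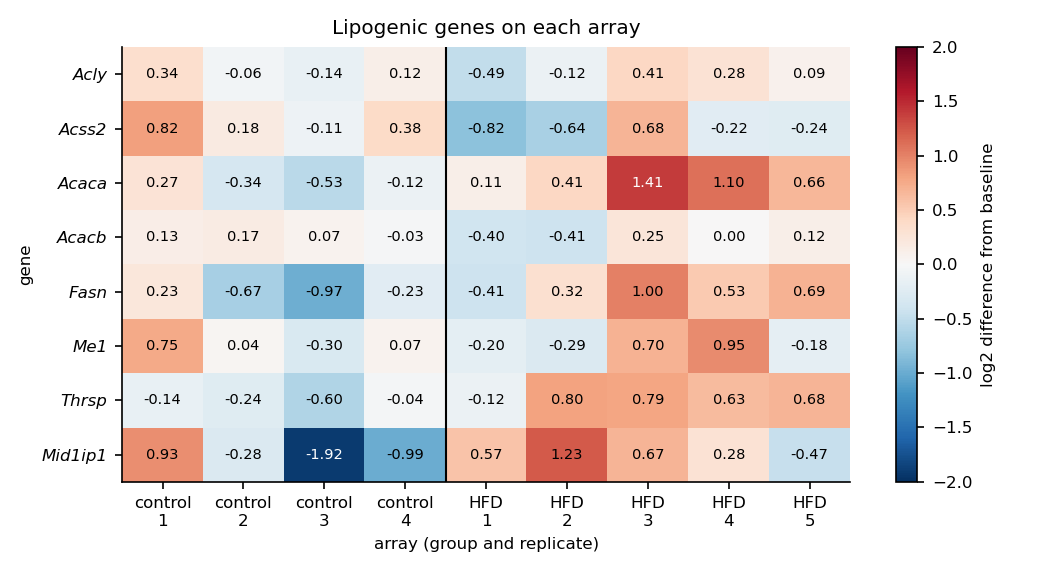
Value of each lipogenic gene (rows) on each array (columns, control replicates 1 to 4 and HFD replicates 1 to 5) as the log2 difference from its baseline, printed in each cell and coloured from blue (low) to red (high). Control replicate 1 is high and control replicate 3 low in most rows, and HFD replicate 3 is above HFD replicate 1 in every row.

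Likeness to Fasn was measured as the root mean square difference over the 9 arrays between profiles of gene means centred on their own mean, as a description with no test. The profiles were not scaled, so the size of a gene's changes counts as well as their pattern. Of all other genes Acaca was the nearest (0.21), and Thrsp was the eighth (0.28). Farther lay Acly (0.49, rank 577), Me1 (0.54, rank 1450), Acacb (0.62, rank 6769), Acss2 (0.73, rank 15319) and Mid1ip1 (0.77, rank 16191). The nearest genes outside the 8 were Rdh16 (0.25), a retinol dehydrogenase, Snai2 (0.26), Iffo2 (0.26), Unc119 (0.26) and Pgrmc2 (0.27). Of these Iffo2 (0.94 ± 0.18, limma adjusted p = 0.0145) and Pgrmc2 (0.89 ± 0.15, adjusted p = 0.00772) rose in HFD.

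The genes that control lipogenic transcription were set beside the members. Srebf1, which encodes SREBP-1 and has 1 probe set, rose by 1.54 ± 0.26 (limma adjusted p = 0.00771). It stood above all controls on every HFD array, as did 5.32% of all genes. On HFD replicate 1 no gene mean of a lipogenic member stood above all controls. Among member probe sets only 1434185_at of Acaca (0.20) and 1439445_x_at of Acly (0.32) did there. The share of all genes or probe sets above all controls on that array was not counted. Insig2, whose product holds SREBP precursors in the endoplasmic reticulum, rose by 1.02 ± 0.09. These were 2 of 11 measured genes (3.15% of all genes were called higher), and none fell. Insig1 (-0.47 ± 0.17), Scap (-0.16 ± 0.08), the ChREBP gene Mlxipl (0.26 ± 0.15) and the LXR gene Nr1h3 (-0.05 ± 0.15) did not pass. Of 11 genes for control and modification of the enzymes 1 rose, against 3.15% of all genes. It was Prkaa2, a catalytic subunit of the AMP-activated kinase that phosphorylates the carboxylases (0.43 ± 0.08, limma adjusted p = 0.0109). Cpt1a (0.29 ± 0.09), Prkab1 (0.19 ± 0.06) and Stk11 (-0.14 ± 0.08) did not, and the count in this list was 2 without control replicate 3 and 0 where a call also needed a 1.5-fold difference.

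Suppliers of carbon and reducing power differed by list. In glycolytic supply 4 of 5 measured genes rose, against 3.15% of all genes. They were Pklr (0.94 ± 0.18), the liver pyruvate kinase, Khk (0.71 ± 0.10), the fructose kinase, Slc2a2 (0.47 ± 0.09) and Gckr (0.35 ± 0.06). Gckr encodes the glucokinase regulatory protein, a regulator rather than a supplier. The count called in this list was 2 where a call also needed a 1.5-fold difference. In citrate and acetyl-CoA supply 0 of 10 were called by limma in either direction, 3 being higher and 0 lower at an unadjusted p under 0.05 (10% and 9.09% of all genes), and Mdh2 (0.16 ± 0.06), Pdhb (0.26 ± 0.10), Cs (0.33 ± 0.13) and Pdha1 (0.28 ± 0.14) had the lowest p. The citrate carrier Slc25a1, which feeds Acly, differed by -0.01 ± 0.11. In NADPH supply 0 of 11 were called, with 2 higher and 1 lower at an unadjusted p under 0.05 (10% and 9.09% of all genes), and Taldo1 (0.23 ± 0.08), Tkt (0.30 ± 0.11), Idh1 (-0.25 ± 0.11) and Nnt (0.13 ± 0.07) had the lowest p. The counts called were 0 for both lists also with the most variable probe set of each gene.

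Past palmitate, 3 of 9 genes of elongation and desaturation rose and 1 fell, against 3.15% and 2.02% of all genes. Elovl6, which lengthens the product of Fasn, rose by 1.15 ± 0.22, Scd1, which desaturates it, by 0.82 ± 0.18 and Fads2 by 0.63 ± 0.13, and Elovl1 fell by 0.41 ± 0.08. The higher count was 1 without control replicate 2 or control replicate 3. The lower count was 0 without control replicate 2 or when HFD replicate 5 was dropped jointly with control replicate 1. It was 2 without HFD replicate 4. At an unadjusted p under 0.05 this list had 4 genes higher and 3 lower, against 10% and 9.09% of all genes. With the most variable probe set of each gene, limma called 2 higher and 1 lower, against 3.37% and 1.87% of all genes. In mitochondrial fatty acid synthesis, a separate pathway, 0 of 6 genes were called in limma, with 2 higher and 0 lower at an unadjusted p under 0.05 (10% and 9.09% of all genes), Oxsm (0.25 ± 0.07) and Acsf3 (0.47 ± 0.15), and Mcat (0.09 ± 0.09) and Mecr (-0.08 ± 0.10) followed. In that list 1 gene was called under array weights or without HFD replicate 5. In cholesterol synthesis 15 of 17 genes fell (2.02% of all genes), and those with the lowest p were Idi1 (-3.40 ± 0.16), Sqle (-4.14 ± 0.22), Cyp51 (-2.16 ± 0.13) and Fdft1 (-1.09 ± 0.07). The median difference was -1.24 in that list, 0.24 in elongation and desaturation, 0.47 in glycolytic supply and 0.44 in the 8 lipogenic genes. It was 0.13 in NADPH supply, 0.09 in citrate and acetyl-CoA supply, 0.03 in transcriptional control, 0.08 in control and modification of the enzymes and 0.11 in mitochondrial fatty acid synthesis, against -0.01 over all genes. The difference between these lists was not tested.

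**Figure D5:**
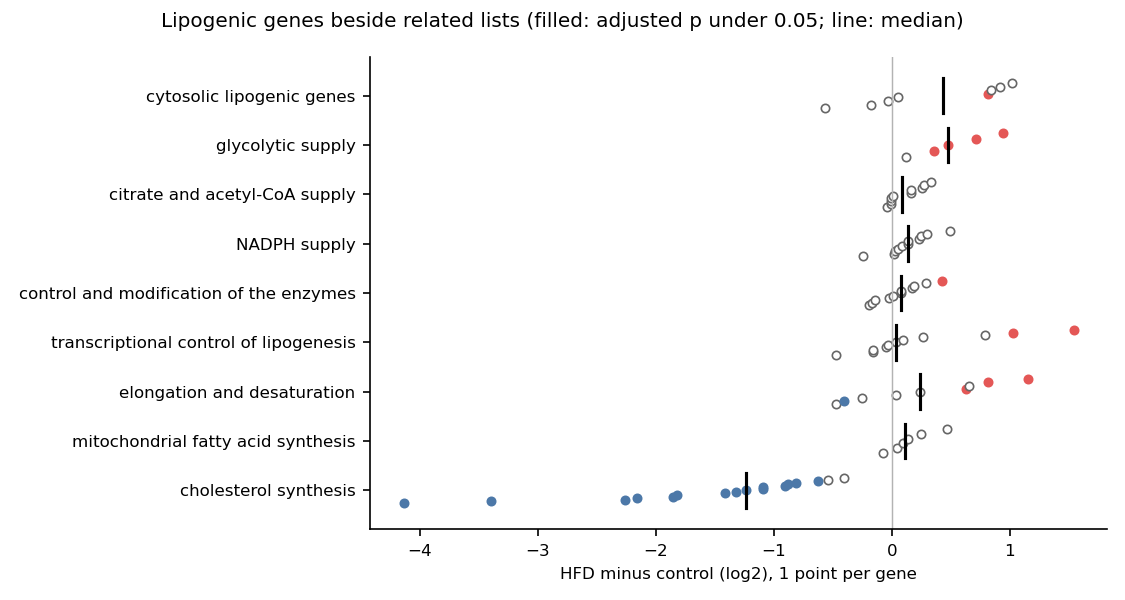
Difference of each gene (horizontal axis, HFD minus control on the log2 scale, 1 point per gene) in the cytosolic lipogenic genes and 8 related lists; filled points are genes called over all genes, and the black line is the median of the list. The lipogenic genes spread from -0.57 to 1.02 with 1 called, while 15 of 17 cholesterol synthesis genes lie below 0 as called genes.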

How the data were processed

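Amplified, biotin-labelled liver RNA was measured on Affymetrix GeneChips, as the labels' protocols describe. The deposited values were summarised with RMA, quantile normalized and set to each probe set's median over all samples by the authors, per the series' design text and the submitters' processing notes. They were read as log2 values, as RMA returns them, although the deposited table names no log base. Centring removes levels, so that no filter on low signal was applied.

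From the table, 60 control probe sets were left out. Of the other 41782, 32801 had 1 gene symbol, 862 several and 8119 none. HFD was compared with control in limma 3.58.1 (R 4.3.3; lmFit and eBayes, two-sided, no covariate), over all probe sets and over the means of 17514 genes, and the code was tested on simulated data. The mean of probe sets replaces a choice of the most variable probe set, which favours larger differences and was run as an alternative. Confidence intervals (95%) are those of the fit. Gaps between pairs of genes were chosen after their values were seen and are described without a test. Replicate numbers follow accession order and pair nothing.

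The members and gene lists were chosen with earlier results of these data known. Of each related list the 4 genes with the lowest p are named, with Nr1h3, Mlxipl and Slc25a1 added after their values were seen. Some genes of these lists are not analysed here. Alternatives were array medians, a further quantile normalization, a filter on spread, robust eBayes, array weights, a 1.5-fold minimum, probe sets without _x_at or _s_at, other gene summaries, and leaving out arrays.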

Additional observations from a re-analysis of the deposited data

Results flagged for a closer look

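Of 54 groups of arrays examined (2 diets for each of the 19 probe sets and 8 gene means), 3 held an array far from the others. Chance gives about 1 in 20, so the number flagged is close to what chance gives. Fasn and Mid1ip1 enter both as probe set and as gene mean with the same values, since each has 1 probe set. HFD replicate 1 stood apart in Thrsp, at -0.12 in the gene mean where the other HFD arrays lay between 0.63 and 0.80, and at -0.0284 in probe set 1424737_at where they lay between 0.67 and 0.79. These are not independent, since the probe set enters the mean. HFD replicate 3 stood apart in the Acss2 probe set 1446542_at, at 2.04 where the other HFD arrays lay between -0.53 and 0.08.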

How the results depend on the processing

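Of 472 differences of the lipogenic genes and their probe sets under alternatives, 413 kept their direction and side of the threshold, 25 lost the call, 10 gained one and 24 changed sign, the last all in values that had not passed. Most of the 472 belong to values that had no call to lose. The 25 losses were 10 of 19 alternatives for the Thrsp gene mean, 10 of 17 for 1424737_at and 5 of 17 for 1422479_at. The 1 probe set called higher became 2 with a further quantile normalization and 2 without the features of smallest spread, 0 with array weights, and 0 to 3 with 1 array left out. The 1 called lower became 0 when HFD replicate 5 was dropped jointly with control replicate 1, and 0 to 1 with 1 array left out. The 1 gene called higher became 2 without the features of smallest spread, 0 with the most variable probe set, and 0 to 3 with 1 array left out. The 3 were reached without HFD replicate 1. With 1 array left out, differences that crossed 0 ran from -0.13 to 0.10 for Acly, -0.13 to 0.26 for Me1 and -0.13 to 0.0044 for Mecr. Among probe sets they ran from -0.063 to 0.020 (1446315_at) and -0.26 to 0.14 (1451666_at) for Acly, -0.59 to 0.21 for Acss2 (1446542_at), -0.37 to 0.0079 for Acacb (1427052_at), and -0.00014 to 0.38 (1416632_at) and -0.27 to 0.14 (1430307_a_at) for Me1. Dropping HFD replicate 5 jointly with control replicate 1 gave 0.046 for Acly, 0.035 for Mecr, 0.059 for 1451666_at, 0.39 for 1446542_at and 0.29 for 1430307_a_at. The gap of Thrsp minus Mid1ip1 ran from -0.67 to 0.13 with 1 array left out, and that of Acly minus Acss2 was -0.33 with the most variable probe sets. The cause was not tested. No paired analysis was possible because the labels give no replicate numbers shared between the diets. Centring on the median removes signal over background, so weak probe sets cannot be told from strong ones.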

Other observations

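Probe sets of 1 gene differed on the same array by up to 2.08 in Acss2 (HFD replicate 3), 2.07 in Acly (HFD replicate 5), 1.82 in Acaca (HFD replicate 5) and 1.28 in Thrsp (HFD replicate 4), on the log2 scale. In Acacb and Me1 the widest gap was 0.89 and 0.45. Acly, Acss2, Acaca and Thrsp therefore have a gene value on those arrays that rests on which probe sets are averaged.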
